A study of Mus musculus with 78 samples.

Results

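Gene expression was compared in the lungs of mice killed at the end of their active phase and of mice left to sleep for the following 3 h. The samples labelled CTL, 0 h (baseline) and those labelled spontaneous sleep (SS), 3 h were taken, which gave 9 mice in each group and 18 of the 78 arrays of the series. Across all 9 against 9 mice, 0 of 35556 probe sets (0%) passed an adjusted p of 0.01. The clock repressor Cry1 was 0.89 lower on the log2 scale after 3 h of sleep, and the clock receptor Nr1d2 was 1.05 higher. Cpt1a, which commits long-chain fatty acids to oxidation in mitochondria, was 0.37 higher. These 3 genes passed the threshold once 4 arrays with a doubtful label were left out, Cry1 falling and Nr1d2 and Cpt1a rising. Those arrays were picked by their expression, which by itself makes passing easier. Mice kept awake for these 3 h had means near those of the SS mice for Nr1d2 (9.35 against 9.36) and Cpt1a (11.23 against 11.17). For Cry1 the means were 7.40 awake and 6.96 in the SS mice. The cytosolic chaperone Hsph1 was 0.67 lower in the mice that slept, and mice kept awake for the same 3 h stood 1.99 above them.

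All mice were male C57BL/6J animals of about 10 weeks of age, kept in 12 h of light and 12 h of dark. Food had been offered only in the dark phase through an acclimation period. Baseline mice were killed when the lights came on. Mice of the SS group were left undisturbed from that time, and those of the sleep deprivation (SD) group were kept awake by gentle handling. Sleep, 3 h of light, 3 h without food and 3 h of clock time therefore separated the SS mice from baseline together, and they cannot be told apart in this comparison. RNA came from whole lung with 1 array for each mouse, so fewer cells of a type and less RNA per cell cannot be told apart either. Sleep amounts are not part of the files used here. Hours of sleep named below are hours of sleep opportunity, and the study reports that undisturbed mice slept for only part of them. Values are log2 intensities of Affymetrix Mouse Gene 1.0 ST probe sets, of which 21218 carried 1 gene symbol, for 18820 genes. A gene was read from the probe set with its highest mean.

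The lungs carried their own markers at a high level. The 19 alveolar type 2 genes had a median log2 intensity of 12.00 and the 15 alveolar type 1 genes one of 11.77, and the medians for 31 endothelial genes and 24 airway genes were 10.78 and 10.42. Array medians lay between 6.54 and 6.74 in the 18 arrays, and the correlation between arrays, across all probe sets, ran from 0.964 to 0.996. No intensity gives a count of molecules, so precision is limited by the number of arrays.

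The circadian clock of lung, as of other tissues, is a loop in which Clock or Npas2 pairs with Arntl (Bmal1) to switch on the Per and Cry genes, whose proteins then silence that pair. A second loop runs through the receptors Nr1d1 and Nr1d2 (Rev-erb alpha and beta), which repress Arntl and Npas2. In nocturnal rodents the hours after lights-on are the main sleep phase, and feeding ends with the night, so that fuel use turns from glucose to fatty acids. Chaperones of the heat shock family hold and refold proteins, and those of the endoplasmic reticulum do so for secreted proteins. Genes of both kinds are known to rise with sleep loss in the rodent brain.

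Some arrays did not sit with their label. The titles number the arrays, and conditions follow each other in runs of consecutive numbers. Array 36 (baseline) was the first of its run, and arrays 56 (baseline), 61 and 78 (both SS, 3 h) were the last of theirs. Each array was set against the mean of every labelled group over 200 probe sets chosen on the other arrays. Array 36 lay at a root mean square distance of 0.119 from the mice that slept for 12 h and 1.205 from its own group. Array 56 was nearest to the SS mice at 3 h (0.170 against 0.310 for its own group). Arrays 61 and 78 were nearest to the mice that slept for 6 h, at 0.208 and 0.242 against 0.540 and 0.376 for their own group. The remaining 14 included 12 that lay closest to the mean of their label, and arrays 57 and 75 were slightly nearer to baseline than to the SS mice (0.252 against 0.253, and 0.226 against 0.255). For each of these 4 the nearest condition was that of the run beside it in the numbering, the run before for array 36 and the run after for arrays 56, 61 and 78. In the whole series 16 arrays at the end of a run were marked in this way. They were marked by their nearest condition, so that 16 of 16 matched a neighbouring run follows from the choice and is not separate evidence. Array 57, the first of its run, also lay nearest to the run before it but was not marked. Among the 62 unmarked arrays, 59 had their given condition as the nearest. Whether any label was displaced was not tested. A label displaced by 1 position would place array 36 with mice that slept for 12 h, array 56 with mice that slept for 3 h and arrays 61 and 78 with mice that slept for 6 h, so the group values over all 9 mice depend on these labels. Group labels were kept as given, and results are shown with and without these 4 doubted arrays. Because they were singled out with their expression known, leaving them out narrows the spread within groups by construction and makes small p easier to reach. It can also move the group means apart and remove overlap between the groups. The share of all genes whose groups do not overlap is not given here, so a lack of overlap in a named gene has no background. Array 76 (SS, 3 h) carried its label without conflict but had the lowest mean correlation with the other 17 arrays (0.974).

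The comparison over all 18 arrays used limma with Benjamini-Hochberg adjustment over all probe sets. At an unadjusted p under 0.05 there were 3179 probe sets, of which 1211 were higher and 1968 lower after sleep. At the level of genes, 715 of 18820 (3.8%) were higher and 844 (4.48%) lower by that measure, and these shares are the background for the lists below. The smallest adjusted p was 0.0795, and the median difference over all genes was -0.006. Without arrays 36, 56, 61 and 78, 5 probe sets passed (0.0141%), of which 4 rose and 1 fell. They were Cry1, Nr1d2, Cpt1a and 2 probe sets with no symbol. When all 9 groups of the series lent their spread to the fit, 4 probe sets passed (0.0112%), namely Cry1, Cpt1a, Aoc1 and 1 without a symbol. A last fit, chosen after the data were seen, held all 9 groups without the 16 arrays marked at run ends in the whole series. Leaving these out has the same effects on spread, means and overlap. It called 34 probe sets (0.0956%) and 24 genes, 9 higher and 15 lower.

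Promoter windows are shown for 4 genes, 2 of the clock and 2 chaperones, chosen because their window holds the motif for which their group is known. The windows run from 250 bases before to 50 bases after a RefSeq transcript start (build GRCm38.p6), and such windows were found for 40 of the 54 genes described. Capitals mark the E-box CACGTG, the site of the Clock and Arntl pair, or the heat shock element core GAANNTTC, both searched on both strands. The E-box was present in 7.15% of all 32851 windows and the heat shock core in 7.86%. In Cry1 (chr10:85185005-85185304, minus strand) the E-box began 60 bases before the start. In Ciart (chr3:95882179-95882478, minus strand) there were 3 E-boxes. Hsph1 (chr5:149636287-149636586, minus strand) held 1 heat shock core and also 1 E-box, left in lower case, and Dnaja4 (chr9:54699309-54699608, plus strand) held 2 cores. Of the 13 chaperone genes described, 9 had a window and 3 of these held a heat shock core (Hsph1, Dnaja4 and Chordc1), while Hspa4l, Stip1, Dnajb1, Serpinh1 and Hspa5 held none. A second window of Dnaja4 held no core, and a second one of Hsph1 overlaps the window shown. Of the 14 clock genes described, 13 had a window and 6 held an E-box (Cry1, Ciart, Per1, Bhlhe41, Lonrf3 and Tef). The windows of Nr1d2, Arntl, Npas2 and Cpt1a held none of the motifs searched, which also included TGACGTCA (1.79% of windows) and AGAACA (19% of windows). A match describes the letters only.
Cry1: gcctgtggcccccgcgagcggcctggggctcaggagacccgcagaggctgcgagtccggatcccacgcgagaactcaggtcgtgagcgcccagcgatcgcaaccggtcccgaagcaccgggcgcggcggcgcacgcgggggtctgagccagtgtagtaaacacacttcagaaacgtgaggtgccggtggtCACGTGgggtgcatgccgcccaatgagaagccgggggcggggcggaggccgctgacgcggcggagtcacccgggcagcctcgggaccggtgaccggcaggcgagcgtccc
Ciart: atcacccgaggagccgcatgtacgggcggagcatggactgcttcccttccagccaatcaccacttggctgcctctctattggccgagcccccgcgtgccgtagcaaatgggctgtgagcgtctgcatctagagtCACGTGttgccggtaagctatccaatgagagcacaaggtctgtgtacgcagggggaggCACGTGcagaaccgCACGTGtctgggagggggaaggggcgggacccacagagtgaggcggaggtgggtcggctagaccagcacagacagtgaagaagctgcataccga
Hsph1: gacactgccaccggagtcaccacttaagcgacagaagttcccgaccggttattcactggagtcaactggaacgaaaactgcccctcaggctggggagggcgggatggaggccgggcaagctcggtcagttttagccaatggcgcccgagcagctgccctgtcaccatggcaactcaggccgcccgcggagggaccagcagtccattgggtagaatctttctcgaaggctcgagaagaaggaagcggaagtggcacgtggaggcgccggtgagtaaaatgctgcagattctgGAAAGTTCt
Dnaja4: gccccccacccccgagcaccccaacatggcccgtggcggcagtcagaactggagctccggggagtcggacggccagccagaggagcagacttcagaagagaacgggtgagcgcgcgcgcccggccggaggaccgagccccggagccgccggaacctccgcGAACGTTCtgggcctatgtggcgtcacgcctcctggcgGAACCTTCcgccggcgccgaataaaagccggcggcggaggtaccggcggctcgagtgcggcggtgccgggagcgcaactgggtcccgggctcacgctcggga

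Among the clock repressors, Cry1 ran from 6.90 through a median of 7.94 to 8.22 in baseline mice and from 6.58 through 6.99 to 7.28 after 3 h of sleep. Array 56 was the only baseline mouse within the range of the SS mice, and the next lowest baseline value was 7.82. The log2 difference was -0.89 (SE 0.14, adjusted p = 0.0795, limma), and it became -0.97 (SE 0.07, adjusted p = 1.6e-05) without the 4 doubted arrays. It was -0.67 in array numbers 52 to 66, where 5 mice stood against 5, and -1.17 in the remaining 4 against 4. Cryptochrome 1 is the protein that binds and silences the Clock and Arntl pair. In the mice kept awake Cry1 had a median of 7.44, between both groups, and stood 0.44 above the SS mice (adjusted p = 0.0378). Without the doubted arrays of the 3 groups that distance was 0.53 and passed the threshold (adjusted p = 6.5e-04). Over longer sleep the group mean was 7.01 ± 0.24 (SD, n = 7) at 6 h, 7.75 ± 0.37 (n = 9) at 9 h and 8.22 ± 0.25 (n = 9) at 12 h. These means hold every array of a label. Among them are arrays 66 (6 h), 10 and 28 (9 h) and 15 and 32 (12 h), which lay nearer to another condition.

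Of the other repressors, the Per genes, whose proteins act with the cryptochromes, did not pass, and their intervals were wide. Per2 had a median of 7.36 at baseline and 7.22 after 3 h of sleep, a difference of -0.17 with a 95% interval from -0.93 to 0.59. Per1 was 0.28 higher (interval -0.46 to 1.03) and Per3 0.20 higher (interval -0.47 to 0.87). Array 36 held the highest baseline value of all 3, for example 10.12 for Per2 and 10.30 for Per3. Without it Per2 was 0.15 higher. Without the 4 doubted arrays Per3 ran from 7.58 to 7.83 at baseline and from 7.87 to 8.12 after sleep, and the groups did not overlap (difference 0.24, adjusted p = 0.103). Ciart, a further repressor of the pair, ran from 7.77 through 8.40 to 9.92 at baseline and from 7.40 through 7.92 to 8.78 after sleep, which overlapped (difference -0.45, SE 0.23, adjusted p = 0.583). It stood 0.76 higher in the mice kept awake than in the SS mice, short of the threshold (adjusted p = 0.0109) until doubted arrays were left out (0.97, adjusted p = 1.1e-05). Bhlhe41 (Dec2) was 0.37 higher than baseline (adjusted p = 0.685). Of 11 repressors measured, 6 were higher and 5 lower, 0 passed the threshold, and the median difference was 0.07.

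The activators were listed together with their Ror and Rev-erb partners. Nr1d2 ran from 7.57 through 8.06 to 10.38 at baseline and from 8.96 through 9.22 to 10.21 after 3 h of sleep. Array 36 lay above every SS mouse and array 56 (9.12) inside their range, and the other 7 baseline mice ended at 8.42. The difference was 1.05 (SE 0.32, adjusted p = 0.313) over all mice and 1.24 (SE 0.12, adjusted p = 0.00102) without the doubted arrays, 1.16 in array numbers 52 to 66 and 0.91 in the remaining arrays. The median in mice kept awake was 9.33, and the distance from the SS mice was -0.01 (adjusted p = 0.993). A second, dim probe set assigned to Nr1d2 had a mean of 3.55 at baseline and 3.62 after sleep.

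Arntl ran from 5.80 through 9.33 to 9.51 at baseline and from 7.06 through 8.86 to 9.18 after sleep. The lowest value of each group belonged to a doubted array, and the difference over all mice was -0.38 with a wide error (SE 0.44, adjusted p = 0.808). Without those arrays the baseline mice lay between 9.24 and 9.51 and the SS mice between 8.51 and 9.18, with no overlap (difference -0.47, SE 0.08, adjusted p = 0.0628). With them, the difference was -0.67 in array numbers 52 to 66 and -0.01 in the remaining arrays. Its partner Npas2 did likewise, with a difference of -0.54 (SE 0.45) over all mice and -0.55 (SE 0.08, adjusted p = 0.0184) without the doubted arrays, where the groups again did not overlap. Npas2 passed in the fit of all groups without 16 arrays (adjusted p = 5.6e-04). The means of mice that slept longer were lower still, again with every array of a label. For Arntl they were 7.52 ± 0.70 (SD, n = 7) at 6 h and 5.81 ± 0.25 (n = 9) at 12 h, and for Npas2 7.59 ± 0.90 and 6.43 ± 0.18. Clock itself was 0.16 lower (SE 0.11, adjusted p = 0.683). Of the 7 members of this list, 6 were lower, 1 was higher and 0 passed.

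Among output factors of the clock, Nfil3, a repressor that competes with the activators Tef, Hlf and Dbp at their sites, ran from 6.08 through 7.58 to 7.86 at baseline and from 6.12 through 6.93 to 7.39 after sleep. The groups overlapped with the doubted arrays and did not without them (difference -0.47, SE 0.23, adjusted p = 0.567, and -0.56, SE 0.10, adjusted p = 0.0628). Nfil3 had a median of 7.63 in the mice kept awake, 0.54 above the SS mice when the doubted arrays of the 3 groups were left out (adjusted p = 0.00139), and 0.58 with them (adjusted p = 0.0821). Lonrf3 was 0.70 lower than baseline (SE 0.18, adjusted p = 0.193). Tef and Hlf were 0.20 and 0.08 higher, with intervals from -0.24 to 0.64 and from -0.42 to 0.58. Of 14 output genes measured, 0 passed the threshold and the median difference was 0.01.

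**Figure D1:**
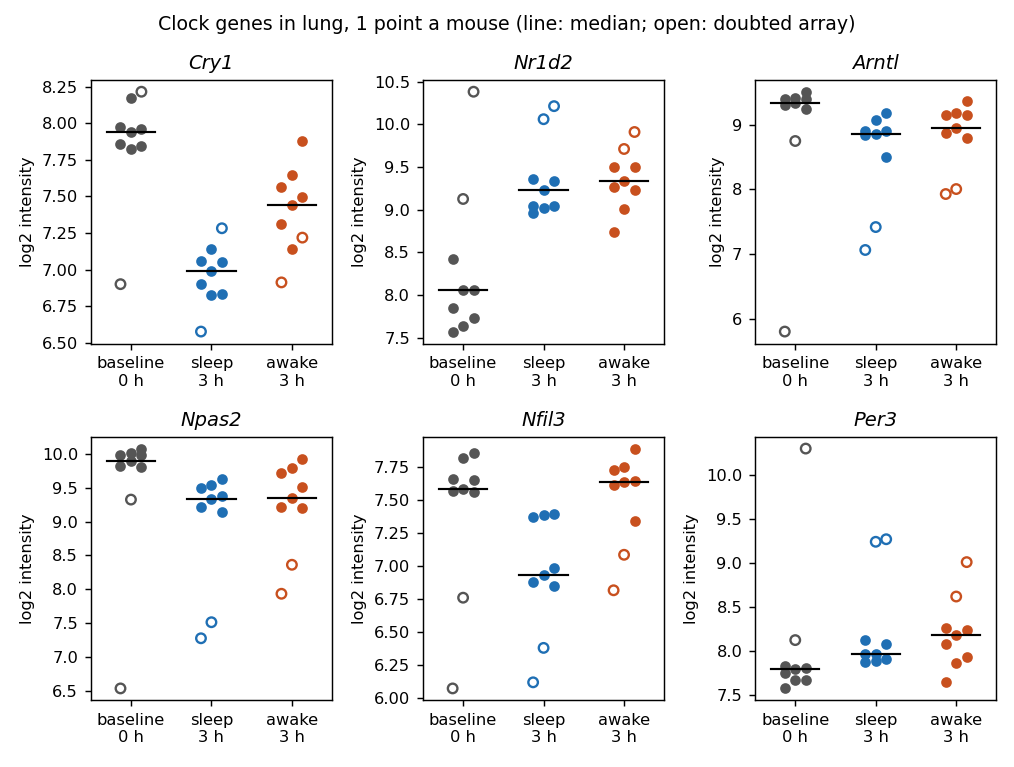
Log2 intensity (vertical axis) of 6 clock genes in each mouse at baseline, after 3 h of sleep and after 3 h of enforced waking, with the line at the median of the 9 mice and open circles for doubted arrays. Filled points of Cry1, Nr1d2, Arntl, Npas2, Nfil3 and Per3 did not overlap between baseline and sleep, which setting open points aside makes easier.

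Genes of fatty acid use stood higher after 3 h of sleep. Cpt1a, the carnitine palmitoyltransferase of the outer mitochondrial membrane, ran from 10.60 through 10.75 to 11.18 at baseline and from 11.05 through 11.17 to 11.36 after sleep. The only baseline mouse within the range of the SS mice was array 36, and array 56 (11.01) was next. The difference was 0.37 (SE 0.07, adjusted p = 0.135) over all mice, 0.43 (SE 0.05, adjusted p = 0.00258) without the doubted arrays, 0.41 in array numbers 52 to 66 and 0.33 in the remaining arrays. Mice kept awake had a median of 11.21, which was 0.43 above baseline (adjusted p = 2.6e-04) and 0.06 from the SS mice (adjusted p = 0.617). Both comparisons share mice with that of sleep against baseline.

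Angptl4, a secreted inhibitor of lipoprotein lipase, ran from 7.66 through 8.23 to 9.49 at baseline and from 8.42 through 8.97 to 9.54 after sleep, and only arrays 36 and 56 made the groups overlap (difference 0.53, SE 0.22, adjusted p = 0.487, and 0.87, SE 0.16, adjusted p = 0.0628 without doubted arrays). Pfkfb3, which makes the activator of glycolytic phosphofructokinase, was 0.33 higher (SE 0.15, adjusted p = 0.523) and likewise did not overlap without doubted arrays. Both passed in the fit of all groups without 16 arrays (adjusted p = 9.1e-05 and 0.00248). Pdk4, which turns pyruvate away from oxidation, ran from 7.95 through 9.16 to 9.81 at baseline and from 8.69 through 9.90 to 11.68 after sleep, with 5 of the 9 SS mice above every baseline mouse (difference 0.97, SE 0.37, adjusted p = 0.434). Acaa2 and Acadl, enzymes of the fatty acid oxidation cycle, were 0.34 (SE 0.11) and 0.36 (SE 0.12) higher, and the carnitine carrier Slc25a20 was 0.49 higher (SE 0.18), with adjusted p of 0.357, 0.356 and 0.419. The mean in the mice kept awake was 9.58 for Angptl4, 10.11 for Pdk4, 9.42 for Pfkfb3 and 10.41 for Acadl. In the SS mice these means were 8.93, 10.01, 9.39 and 10.51, and at baseline 8.40, 9.03, 9.05 and 10.15. Acaa2 had means of 11.34 awake, 11.61 after sleep and 11.27 at baseline.

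All 34 measured fasting and PPAR lipid genes were level or higher after sleep, from 0.00 to 0.97, with a median of 0.28 against -0.006 for all genes. At an unadjusted p under 0.05, 11 of the 34 were higher and 0 lower, and 0 passed the adjusted threshold. The median was 0.31 without the doubted arrays, 0.22 within array numbers 52 to 66 and 0.39 in the remaining arrays. For the mice kept awake the median difference of the list was 0.06 from baseline and -0.20 from the SS mice. Fat genes moved with this list, and their part in it was tested only as a covariate. The 18 brown and white fat genes had a median difference of 0.42, and the mean deviation of that list from its 18-array average ran from -1.14 to 0.48 at baseline and from -0.97 to 2.04 after sleep. Array 76 was highest for both, at 2.04 for fat and 0.88 for the fasting list, and array 59 was next at 1.2 and 0.40. Of the 34 fasting genes, 4 are also in the fat list. With the mean of the fat list as a covariate, an alternative added after the data were seen, the median of the fasting list became 0.14, 31 of 34 genes stayed above 0 and Cpt1a was 0.36 higher. Without array 76 the median was 0.19. Pck1, of gluconeogenesis and glyceride synthesis, is a fat list member and went from 1.32 to 0.58 with that covariate, and Pdk4 went from 0.97 to 0.51.

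**Figure D2:**
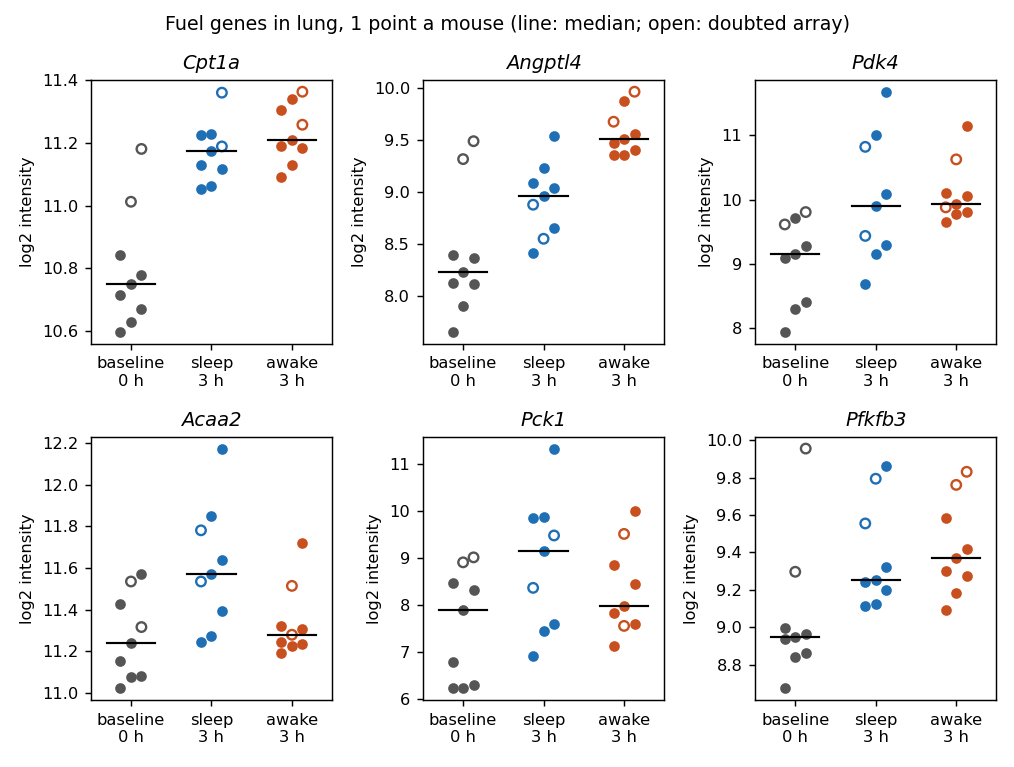
Log2 intensity (vertical axis) of 6 genes of fuel use in each mouse of the 3 groups, with medians as lines and open circles for doubted arrays. Cpt1a, Angptl4 and Pfkfb3 separated baseline from sleep once open points were set aside, which makes separation easier. Pdk4, Acaa2 and Pck1 overlapped, with array 76 highest in each of these 3.

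The 38 measured subunits of the respiratory chain had a median difference of 0.15, and 37 of 38 had a value above 0. Only 2 were higher at an unadjusted p under 0.05, and 0 without the doubted arrays, so the share of single genes was near that of all genes (3.8%). Their median was 0.04 with the fat covariate and 0.09 without array 76. Cardiac muscle genes had a median of 0.21, with 19 of 21 higher and 0 at an unadjusted p under 0.05, and a median of -0.04 without the doubted arrays. Arrays 59 and 76 were the highest SS mice for both lists, at 1.39 and 0.83 for cardiac muscle and 0.40 and 0.63 for the respiratory chain, and the part of heart tissue in these values was not tested. Genes of other tissues, whose part in the results was otherwise not tested, varied from lung to lung. Liver genes had a median difference of 0.81, with 35 of 35 higher, 0 of them at an unadjusted p under 0.05, and a list mean that ran from -1.19 to 1.58 at baseline and from -0.89 to 3.54 after sleep. Squamous and tracheal genes had a median of -0.67, which was -1.51 in array numbers 52 to 66 and 0.37 in the remaining arrays. Skeletal muscle genes had medians of 0.05, -0.44 and 0.71 in the same 3 sets of arrays. With the liver mean as a covariate the median of the fasting list was 0.28, as without it, and Cry1 was -0.78, Cpt1a 0.36 and Nr1d2 0.98.

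**Figure D3:**
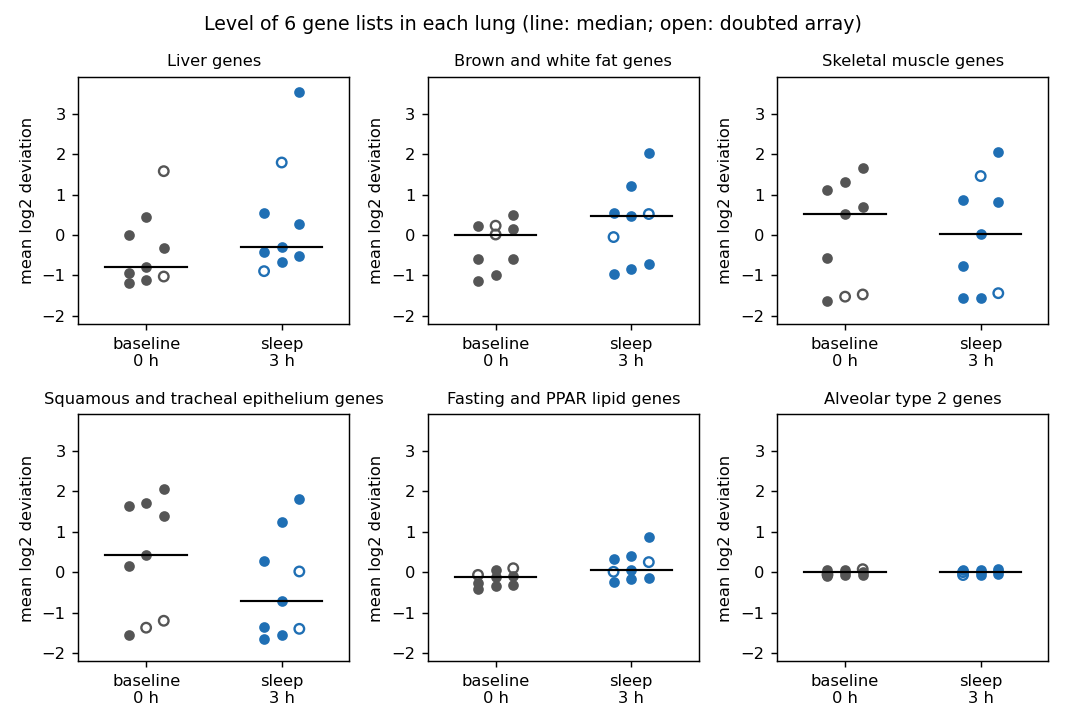
Mean log2 deviation (vertical axis) of 6 gene lists in each baseline mouse and each mouse after 3 h of sleep, all on 1 scale, with medians as lines and open circles for doubted arrays. Liver, fat, muscle and squamous lists spread widely within each group (liver from -0.89 to 3.54 after sleep), the fasting list ran from -0.40 to 0.88 over all 18 mice and the alveolar type 2 list from -0.10 to 0.08.

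Several cytosolic chaperones had lower values after sleep. Hsph1, an Hsp110 that recharges Hsp70, ran from 8.76 through 9.23 to 10.22 at baseline and from 8.24 through 8.70 to 8.87 after sleep. Of the 9 SS mice, 8 lay below every baseline mouse, and array 56 was the lowest baseline mouse. The difference was -0.67 (SE 0.15, adjusted p = 0.144) over all mice, -0.74 without doubted arrays (adjusted p = 0.0868), -0.61 in array numbers 52 to 66 and -0.75 in the remaining arrays. The mice kept awake ran from 9.45 through 10.70 to 11.15, all above the highest SS mouse. They stood 1.99 above the SS mice (adjusted p = 9.6e-07) and 1.31 above baseline (adjusted p = 2.2e-04). In the comparison of waking with sleep at 3 h, 1075 genes in all passed (5.71%).

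Hspa4l, of the same Hsp110 group, ran from 9.30 through 9.42 to 9.91 at baseline and from 8.72 through 9.18 to 9.35 after sleep, with 7 of 9 SS mice below baseline (difference -0.34, SE 0.09, adjusted p = 0.207). Hsp90aa1, the inducible Hsp90, went from a median of 11.42 to 11.20, and 6 of the 9 SS mice lay below every baseline mouse (difference -0.27, SE 0.07, adjusted p = 0.223). Its 2 other probe sets differed by -0.24 and -0.21. The co-chaperones Stip1, which links Hsp70 to Hsp90, Chordc1, which binds Hsp90, and Dnaja4 and Dnajb1, which feed Hsp70, were 0.27, 0.42, 0.25 and 0.33 lower, with adjusted p of 0.264, 0.276, 0.187 and 0.479. Without doubted arrays Hsph1, Hspa4l, Hsp90aa1 and Dnaja4 did not overlap between the groups, with no share of all genes to set beside this. Hsph1 and Dnaja4 passed in the fit of all groups without 16 arrays (adjusted p = 0.00192 and 0.00677). All of these chaperones and co-chaperones were higher in the mice kept awake than in the SS mice and passed. The distance was 1.0 for Hspa4l (adjusted p = 6.7e-06), 0.96 for Stip1, 0.90 for Chordc1, 0.76 for Hsp90aa1 and 0.47 for Dnaja4. Both comparisons use the same SS mice. Against baseline, Hspa4l (0.66), Hsp90aa1 (0.50) and Stip1 (0.69) passed in the mice kept awake, whereas Chordc1 (0.47, adjusted p = 0.0769), Dnaja4 (0.22, adjusted p = 0.0998) and Dnajb1 (0.40, adjusted p = 0.13) did not.

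Over the list of 46 heat shock proteins and partners, most of them cytosolic, 33 were lower and 13 higher after sleep. The median was -0.06 against -0.006 for all genes. The list also held mitochondrial members, with Hspa9, Dnaja3, Hspe1 and Hspd1 higher by 0.25, 0.17, 0.03 and 0.01. Serpinh1 of the endoplasmic reticulum was counted in it as well. At an unadjusted p under 0.05, 15 were lower and 0 higher, beside a background of 4.48% of genes lower. By array numbers, 36 of 46 were lower in array numbers 52 to 66 and 30 of 46 in the remaining arrays. Of the endoplasmic reticulum chaperones, Hspa5 (BiP), the master chaperone of that compartment, went from a median of 11.73 to 11.54 (difference -0.16, SE 0.08, adjusted p = 0.566). Serpinh1, which folds collagen, was 0.28 lower (adjusted p = 0.407), Manf 0.19 lower, Hyou1 0.11 lower and Calr 0.04 lower. The endoplasmic reticulum list of 47 did not include Serpinh1. It had 36 lower and 11 higher genes, 4 lower at an unadjusted p under 0.05 and a median of -0.03. In mice kept awake Hspa5 was 0.60, Hyou1 0.61, Manf 0.67, Serpinh1 0.66 and Calr 0.26 above the SS mice, and all 5 passed.

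**Figure D4:**
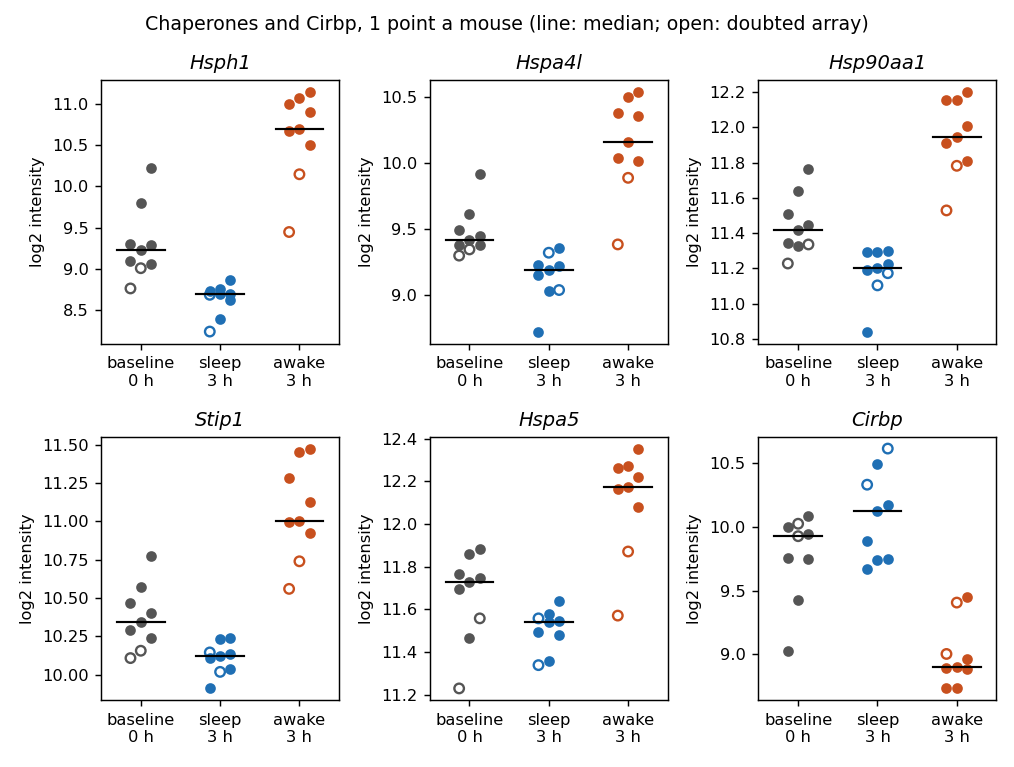
Log2 intensity (vertical axis) of 5 chaperone or co-chaperone genes and of Cirbp in each mouse of the 3 groups, with medians as lines and open circles for doubted arrays. For Hsph1, Hspa4l, Hsp90aa1, Stip1 and Hspa5 the baseline median lay between that of the SS mice below and that of the mice kept awake above, and for Cirbp the order was reversed.

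The cold-inducible RNA-binding proteins, whose mRNAs rise as body temperature falls, did not pass. Cirbp ran from 9.02 through 9.93 to 10.09 at baseline and from 9.67 through 10.13 to 10.62 after sleep (difference 0.32, SE 0.15, adjusted p = 0.566), and 5 of the 9 SS mice lay above every baseline mouse. Rbm3 was 0.16 higher (SE 0.09, adjusted p = 0.648), with overlap. In the mice kept awake Cirbp was 1.09 lower than in the SS mice (adjusted p = 2.1e-05) and 0.78 lower than at baseline (adjusted p = 0.00285), and Rbm3 was 0.68 and 0.52 lower (adjusted p = 1.4e-05 and 0.00107).

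Most T cell and natural killer genes stood higher in the lungs of mice that slept. Klrb1c (NK1.1), a receptor of natural killer cells, ran from 5.40 through 5.67 to 5.87 at baseline and from 5.82 through 6.04 to 6.56 after sleep, with 8 of 9 SS mice above every baseline mouse (difference 0.44, SE 0.09, adjusted p = 0.135). Cd4, the helper T cell co-receptor, was 0.27 higher (SE 0.07, adjusted p = 0.217), with 7 of 9 SS mice above baseline. Il2rb, the shared receptor chain for interleukins 2 and 15, was 0.35 higher (SE 0.10, adjusted p = 0.251). Ccr7, which guides lymphocytes to lymph nodes, was 0.27 higher. H2-Oa, a subunit of H2-O, which restrains class II peptide loading, was 0.34 higher. Psmb8, of the immunoproteasome, was 0.35 higher (adjusted p = 0.175). In the natural killer list 15 of 15 genes were higher, 7 at an unadjusted p under 0.05, with a median of 0.22. In the T cell list 15 of 16 were higher, 8 at that level, with a median of 0.21. The B cell list had the same median of 0.21, made of 0.01 in array numbers 52 to 66 and 0.50 in the remaining arrays, whereas the natural killer list gave 0.14 and 0.35 and the T cell list 0.10 and 0.28. Without the doubted arrays 807 of all 18820 genes were higher at an unadjusted p under 0.05. Of the 15 natural killer genes 3 were, and of the 16 T cell genes 6. With the fat covariate 1162 of 35556 probe sets were higher at that level, beside 14 natural killer and 10 T cell genes. These genes were named for their small p in SS mice, so a comparison with the same SS mice starts from high values, and the mice kept awake are set against baseline here. Klrb1c had a mean of 5.68 at baseline, 6.12 after sleep and 5.55 in the mice kept awake. The waking mice differed from baseline by -0.13 for Klrb1c (adjusted p = 0.698), -0.07 for Cd4 (adjusted p = 0.809), -0.15 for Il2rb (adjusted p = 0.588) and -0.41 for Ccr7 (adjusted p = 0.015). H2-Oa was 0.55 lower than baseline in the waking mice and passed (adjusted p = 0.00314).

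Some genes outside the naming rule were chosen after their values were seen, because they had the smallest p or passed in an alternative fit. The same holds for Stip1, Chordc1, Dnajb1, Dio2 and Edil3, as list members or for their spread. Aoc1 (diamine oxidase), which breaks down histamine and putrescine, ran from 8.21 through 8.62 to 8.89 at baseline and from 8.95 through 9.26 to 9.47 after sleep, with no overlap among all 18 mice (difference 0.64, SE 0.11, adjusted p = 0.105). It passed in the fit of all 9 groups (adjusted p = 0.00507). Gsg1l, an auxiliary subunit of glutamate receptors in the brain, also did not overlap, at 6.25 to 6.54 against 6.60 to 6.82 (difference 0.28, SE 0.04, adjusted p = 0.0795). Choosing genes by small p favours those whose groups do not overlap. The share of all genes without overlap is not given. Rbm14, a nuclear coactivator, was 0.30 lower (SE 0.06, adjusted p = 0.135) and Slc25a38, the mitochondrial glycine carrier of haem synthesis, 0.33 lower (SE 0.06, adjusted p = 0.135), with 2 and 6 of the 9 SS mice below every baseline mouse. Slc5a3, the myo-inositol carrier, was 0.39 lower (SE 0.10, adjusted p = 0.212), and Gpr146 was 0.32 higher (SE 0.07, adjusted p = 0.149). Zbtb16, a transcription factor induced by glucocorticoids, ran from 8.48 through 8.70 to 11.80 at baseline and from 9.02 through 9.81 to 10.60 after sleep, where arrays 36 and 56 gave the highest baseline values (difference 0.64, SE 0.39, and 1.24, SE 0.23, adjusted p = 0.0628 without doubted arrays). Gm20806, one of several near-identical Y-linked genes whose probes cannot be told apart, was 1.07 lower (SE 0.22, adjusted p = 0.135), with 7 of 9 SS mice below baseline at a low intensity, from 3.99 to 5.18.

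Most other lists had medians near that of all genes. Alveolar type 2 and type 1, endothelial, fibroblast and macrophage lists had medians of 0.03, -0.02, -0.01, 0.01 and 0.01. Glucocorticoid-induced genes had a median of 0.03 over all mice and 0.12 without doubted arrays, where 26 of 32 were higher. The proteasome list had a median of 0.05, the Atf4 stress list 0.06, interferon genes 0.03, ribosome biogenesis 0.00 and cell cycle genes -0.03. The 9 hexosamine pathway genes had a median of -0.01.

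**Figure D5:**
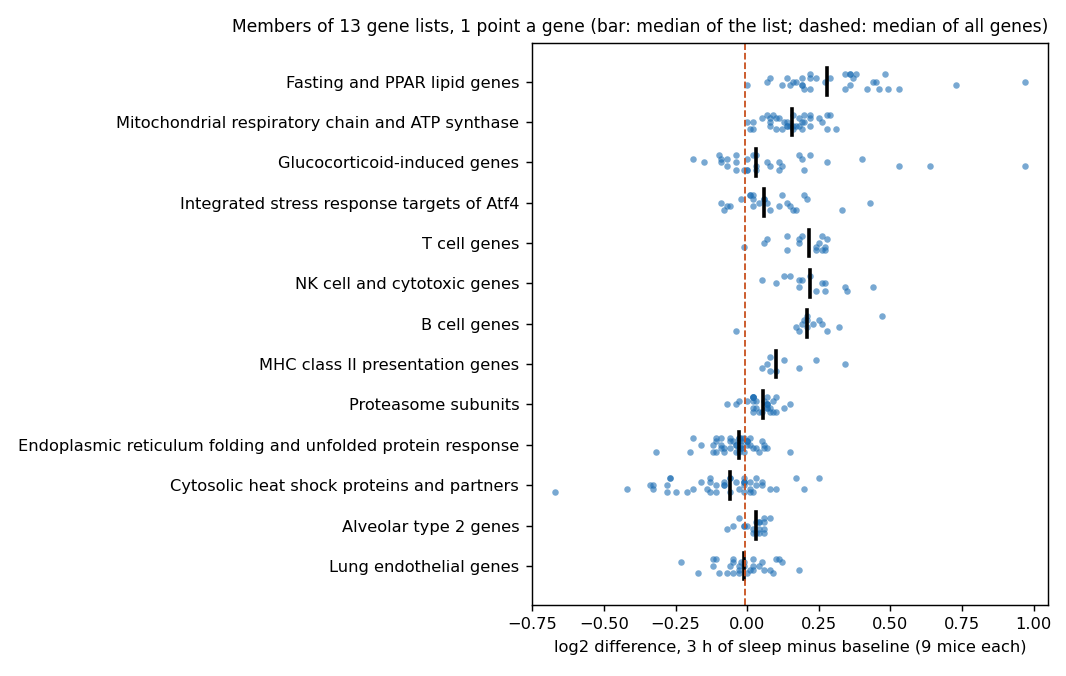
Log2 difference between 3 h of sleep and baseline (horizontal axis) for each gene of 13 lists, with the median of a list as a bar and the median of all genes as a dashed line. The lipid, respiratory chain and lymphocyte lists lay to the right. The list of heat shock proteins and partners trailed to the left as far as Hsph1 (-0.67), and lung cell lists stayed around the dashed line.

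Most probe sets had a somewhat larger SD between mice after 3 h of sleep. Whether mice as a whole differed more was not tested, since probe sets share the same arrays. The spread was not fitted without array 76. The median SD of a probe set was 0.139 at baseline and 0.165 after sleep, and 64% of probe sets had the larger SD after sleep. No probe set of 35556 (0%) passed a limma test on absolute deviations from the group median, where 562 had a larger and 378 a smaller spread after sleep at an unadjusted p under 0.05. These numbers were 529 and 128 without the doubted arrays, and 365 and 46 among probe sets with a mean of at least 6. A ratio of variances was added after the data were seen. It called 2 genes (0.0106% of 18820), both more spread after sleep. Dio2, which activates thyroid hormone and is high in brown fat, had SDs of 0.07 at baseline and 0.82 after sleep, where array 76 stood at 7.90 and the median was 5.70. Edil3, an extracellular matrix protein, had SDs of 0.02 and 0.30. Neither passed without the 4 doubted arrays (adjusted p = 0.0155 and 0.019). Fasting genes had a median SD of 0.19 and 0.38, respiratory chain genes 0.13 and 0.27, and liver genes 0.92 and 1.62. Single SS mice stood out in these lists. Array 76 had list means of 0.88 for fasting and 0.63 for the respiratory chain, where the next SS mouse had 0.40 in each. For liver, array 60 stood at 3.54 and the next SS mouse at 1.79. Without doubted arrays the median SD of clock repressors went from 0.13 to 0.12. That of clock activators and partners went from 0.10 to 0.17, and that of clock output genes from 0.13 to 0.21. Alveolar type 2 genes went from 0.10 to 0.08 over all mice.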

How the data were processed

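Lung RNA was hybridised to Affymetrix Mouse Gene 1.0 ST arrays, and the authors normalized all lung arrays together by RMA. The deposited values are log2 intensities whose decimal point was missing. It was restored after digit 1, or after digit 2 where the value began with 1, and all 322634 such values went on with a digit from 0 to 3. Columns of other samples left unused numbered 0. Differences were fitted with limma 3.58.1 in R 4.3.3 on the 18 arrays of both groups, with Benjamini-Hochberg adjustment over 35556 probe sets and a threshold of 0.01, and the waking mice entered a fit of 3 groups. The scripts were tested on simulated data. Named genes were up to 5 members of each list with the smallest adjusted p, all clock and cold-inducible genes, and genes the study names for lung; others are said to have been chosen after their values were seen. Members and lists were chosen with earlier results of these data known. Alternatives covered the samples fitted, doubted arrays, array order, normalization, dim probe sets (mean log2 under 6), variance models, tissue covariates and single mice. That the mice of a group are separate animals comes from the study's methods.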

Additional observations from a re-analysis of the deposited data

Results flagged for a closer look

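In 54 genes by 2 groups, 108 groups of 9 mice were checked for 1 mouse far from the others, that is, whose gap to the next value was a larger part of the group's range than Dixon's 95% critical value. This was so in 21. Chance flags about 1 in 20 independent groups, but these groups share the same 18 arrays and are not independent. Array 36 gave 12 of them at baseline, with log2 intensities of 5.80 for Arntl, 6.54 for Npas2, 9.86 for Clock, 9.92 for Ciart, 10.12 for Per2, 10.30 for Per3, 8.79 for Bhlhe41, 10.11 for Tef, 9.37 for Hlf, 9.95 for Pfkfb3, 11.64 for Calr and 12.21 for Rbm3. Array 56 gave 3, at 6.90 for Cry1, 8.93 for Chordc1 and 9.05 for Rbm14. After 3 h of sleep array 76 gave 4, at 9.86 for Clock, 10.84 for Hsp90aa1, 8.42 for Chordc1 and 7.90 for Dio2. The others were Hspa4l in array 40 (9.91, baseline) and Gm20806 in array 77 (5.18, sleep).

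Of 52 genes, 25 differed between mice kept awake and mice that slept for 3 h in limma's test of that difference (adjusted p under 0.01), against 5.71% of all genes. Most were chosen for their values in the same SS mice, so the share is not comparable. The chaperone genes were higher awake, by 1.99 for Hsph1, 1.0 for Hspa4l, 0.96 for Stip1, 0.90 for Chordc1, 0.76 for Hsp90aa1, 0.72 for Dnajb1, 0.47 for Dnaja4, 0.31 for Hspa8, 0.67 for Manf, 0.66 for Serpinh1, 0.61 for Hyou1, 0.60 for Hspa5 and 0.26 for Calr. Rbm14 (0.42), Slc25a38 (0.34), Slc5a3 (0.83) and Gm20806 (2.02) were higher too. The log2 difference was negative for Klrb1c (-0.57), Cd4 (-0.34), Il2rb (-0.50), Ccr7 (-0.68), H2-Oa (-0.88), Gsg1l (-0.34), Cirbp (-1.09) and Rbm3 (-0.68).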

How the results depend on the processing

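Against 0 probe sets in the comparison of 18 arrays, 4 passed with all 9 groups in 1 fit, the same number when a block for the 4 runs was added to that fit, 5 without arrays 36, 56, 61 and 78, and 1 (Cry1) with array weights. An alternative added after seeing the data, all 9 groups without 16 arrays, gave 34. Leaving out 1 mouse at a time gave 0 to 2, the 2 being Cry1 and Rbm14 without array 56. Equal medians, quantile normalization, the dim filter, robust variances, liver and fat covariates and either set of array numbers gave 0. For the spread, where limma gave 0, the added ratio of variances called 2 probe sets, and 8 without the 4 doubted arrays. The difference turned to -0.16 for Per1, -0.07 for Per3, -0.21 for Hlf, 0.03 for Hyou1 and 0.04 for Calr outside array numbers 52 to 66, and to 0.26 for Per2 within them. Leaving out 1 mouse at a time moved Per2 between -0.32 (without array 61) and 0.15 (without array 36), and Hlf between -0.03 (without array 61) and 0.28 (without array 36). The cause was not tested. The cholesterol list had a median of -0.01, which was -0.11 within array numbers 52 to 66 (0 of 21 higher) and 0.11 in the remaining arrays (16 of 21 higher). No paired analysis was possible because the baseline and SS mice were different animals. With 9 arrays a group, small differences are limited by the spread between mice.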
